A study of Rattus norvegicus with 96 samples.

Results

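Levels of potassium channel genes were surveyed in rat lines selected for drinking much or little alcohol. RNA came from the amygdala's central nucleus, a forebrain region that takes part in responses to threat and to drugs. The members were all probe sets annotated to 1 gene symbol beginning with Kcn, a rule that uses no measured value. It selected 126 of 31042 probe sets, which stand for 75 of the 14217 genes measured through a single symbol. Of those 75 genes, 44 had 1 probe set, 16 had 2 and 15 had 3 or more, with 6 for Kcnc2.

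The study compared 5 pairs of selectively bred rat lines on 96 Affymetrix arrays of 25 ng RNA each, and every array carries the number of its own animal. The alcohol-preferring and non-preferring lines were HAD1 (9 arrays) and LAD1 (10 arrays), HAD2 and LAD2 (10 arrays each), P and NP (10 arrays each), AA and ANA (10 arrays each), and sP (8 arrays) and sNP (9 arrays). HAD and LAD stand for high and low alcohol drinking, and HAD1 and HAD2 are replicate selections, each with its own LAD line. P and NP were selected for and against alcohol preference, AA and ANA come from the Alko programme and sP and sNP from Sardinia. The labels give no sex, age or alcohol exposure, so the groups are described by line alone. Each line pair is 1 selection, and all values are differences between tissue punches in which fewer cells of a type and less RNA per cell cannot be told apart.

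Potassium channels let K+ leave the cell, which sets the resting potential, ends action potentials and limits repetitive firing. The pore is formed by a large gene family with distinct branches: voltage-gated Kv channels, calcium-activated BK and SK channels, inward rectifiers of the Kir family, and K2P leak channels. Cytoplasmic and single-pass subunits change how many channels reach the membrane and how they open. GIRK inward rectifiers and BK channels are known as direct targets of ethanol, and several Kv channels shape firing of the inhibitory neurons that make up most of the central amygdala.

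Levels are deposited log2 values made with RMA, a method that condenses the probes of a probe set into 1 value, and a difference of 1 is a doubling. Differences are preferring minus non-preferring line within a pair, tested with limma's moderated test, and a probe set passed where its p, adjusted by the Benjamini-Hochberg method over all 31042 probe sets, was under 0.05. Levels are compared between lines of a pair for 1 probe set at a time, not between probe sets. Array medians lay between 7.77 and 8.02. The 3' to 5' log2 ratio of the Gapdh control probe sets, a sign of RNA integrity and labelling, averaged 3.84 ± 0.66 in HAD1 and 4.09 ± 0.46 in LAD1 rats, 3.43 ± 0.58 in HAD2 and 3.33 ± 0.26 in LAD2 rats, and between 0.20 and 0.43 in the other 6 lines (SD). The part of this ratio in the results was not tested.

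Some arrays stood apart from their labels. On probe sets outside the potassium channel family, 15 arrays lay on the side of the other line of their pair: HAD1 28 and LAD1 37, P 1, P 9, NP 1 and NP 9, AA 15, AA 17, AA 19, ANA 16 and ANA 18, and sP 2, sP 9, sNP 8 and sNP 9. They are kept in the values below unless stated. The 15 arrays were picked by a score of the line difference on those other probe sets, so leaving them out tends to widen line differences by construction, and calls made without them are descriptions and not independent tests. Over all probe sets, 502 then passed in P minus NP, 559 in AA minus ANA and 542 in sP minus sNP, where 0 passed in each with every array. One further array, LAD1 36, has LAD1 in its title and HAD1 in its source name and was counted as LAD1. Arrays sP 2 and sNP 2 differed across probe sets with an SD of only 0.09, against 0.16 for the next closest pair of arrays. Array P 5 averaged 11.35 over 5 choroid plexus markers, whereas the other P arrays averaged at most 6.65.

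Few potassium channel genes passed the test. In HAD2 against LAD2 rats 5 probe sets of 4 genes passed, all of them higher in HAD2 rats, and 1 probe set, of Kcnip1, passed for the mean over the 5 line pairs. In HAD2 against LAD2 this was 5 of 126 potassium channel probe sets (3.97%), against 4.09% of all probe sets, of which 677 were higher and 594 lower in HAD2 rats. In HAD1 against LAD1, 0 of 126 passed, where 0.963% of all probe sets did. In P against NP, AA against ANA and sP against sNP, 0 of 126 passed, where 0% of all probe sets did. At an unadjusted p under 0.05 the limma counts were 15 of 126 in HAD1 against LAD1 (11% of all probe sets), 17 in HAD2 against LAD2 (16.4% of all), 1 in P against NP (4.91% of all), 7 in AA against ANA (4.92% of all) and 7 in sP against sNP (4.32% of all). In P against NP the members' share, 0.794%, was the one farthest below that of the whole array. Without the 15 arrays on the other line's side the members that passed numbered 4 in HAD1 (2.56% of all probe sets), 5 in HAD2 (4.09%), 1 in P (1.62%), 1 in AA (1.8%) and 5 in sP rats (1.75%).

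Taking 1 probe set per gene, the brightest one, the direction was split in every pair. Positive differences were found for 40 of 75 genes in HAD1 minus LAD1, 32 in HAD2 minus LAD2, 33 in P minus NP, 41 in AA minus ANA and 37 in sP minus sNP. Over all genes the positive shares were 43.6%, 48.4%, 53.5%, 51.0% and 41.3% in the same order of pairs. The median size of a potassium channel difference was 0.061, 0.063, 0.056, 0.064 and 0.056 log2 in that order. For all genes it was 0.066, 0.067, 0.046, 0.052 and 0.038. The median standard error of a potassium channel gene's difference lay between 0.070 and 0.111, against 0.063 to 0.080 for all genes. The same sign was found in 5 of 5 pairs for 3 genes of 75 (4%), against 5.02% of all genes: Kcnip1 and Kcnh1 with positive differences and Kcng2 with negative ones. Among 15 subfamilies the median difference ran from -0.17, for the 3 Kv3 genes in HAD1 minus LAD1, to 0.18, for the 2 KATP pores in HAD2 minus LAD2.

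**Figure D1:**
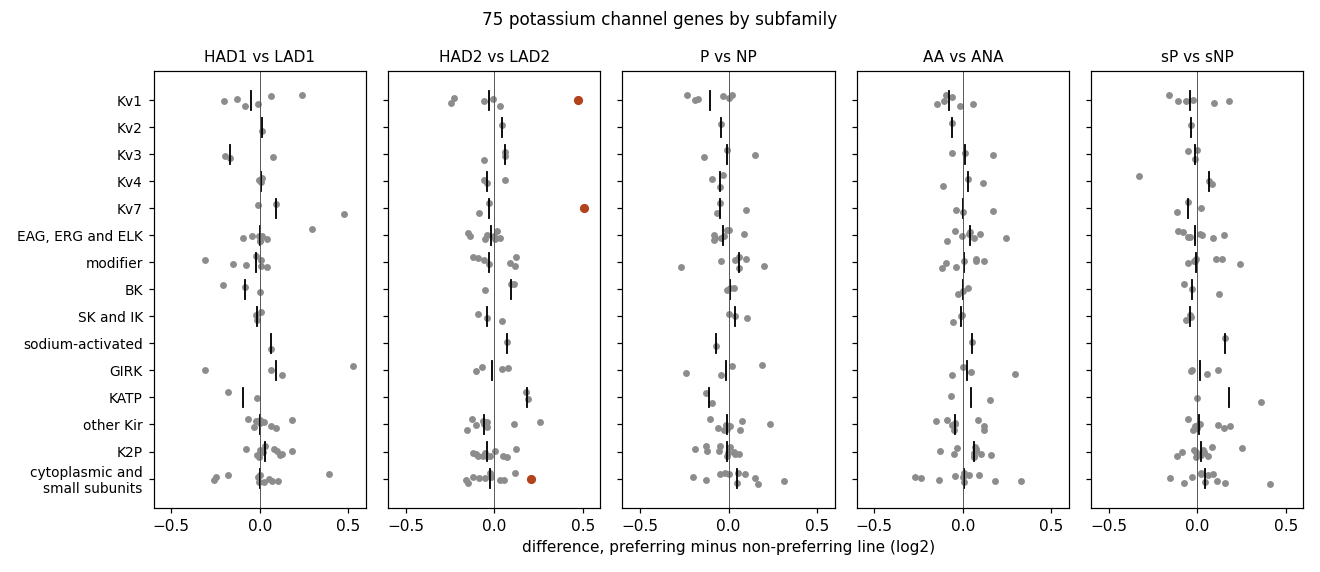
Difference in log2 level, preferring minus non-preferring line (x axis), for 75 potassium channel genes grouped into 15 subfamilies (y axis), 1 panel per line pair. Points are genes on their brightest probe set, black bars are subfamily medians, and red points passed limma's test: Kcna2, Kcnq5 and Kcnip3, all in HAD2 minus LAD2.

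Kcnip1 was the one member whose mean difference over the 5 pairs passed the test. It encodes a calcium-binding EF-hand subunit that assembles with Kv4 channels and raises A-type potassium current. Its brightest probe set, 1394097_at, was higher on average in the preferring line of 5 of 5 pairs. RefSeq places 2 start windows for Kcnip1 on the minus strand of rat chromosome 10. They are shown, with those of Kcnc2 and Kcna2, because these genes carry most of the probe sets that passed. Each window of GRCr8 runs from 250 bases before to 50 bases after the start, and capitals mark matches to the motifs searched.
Kcnip1, chr10:19092976-19093275, minus strand: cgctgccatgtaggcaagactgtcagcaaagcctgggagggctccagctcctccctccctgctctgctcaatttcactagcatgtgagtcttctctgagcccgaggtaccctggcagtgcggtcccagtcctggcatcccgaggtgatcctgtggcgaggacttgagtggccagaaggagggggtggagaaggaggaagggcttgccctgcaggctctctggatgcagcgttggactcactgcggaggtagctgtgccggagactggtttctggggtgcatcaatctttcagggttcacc
Kcnip1, chr10:18940760-18941059, minus strand: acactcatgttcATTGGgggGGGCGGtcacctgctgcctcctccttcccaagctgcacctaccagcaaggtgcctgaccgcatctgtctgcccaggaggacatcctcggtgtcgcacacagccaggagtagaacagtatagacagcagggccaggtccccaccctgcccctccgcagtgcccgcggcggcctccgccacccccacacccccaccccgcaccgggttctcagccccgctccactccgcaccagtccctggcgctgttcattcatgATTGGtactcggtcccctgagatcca
Kcnc2, chr7:49587364-49587663, plus strand: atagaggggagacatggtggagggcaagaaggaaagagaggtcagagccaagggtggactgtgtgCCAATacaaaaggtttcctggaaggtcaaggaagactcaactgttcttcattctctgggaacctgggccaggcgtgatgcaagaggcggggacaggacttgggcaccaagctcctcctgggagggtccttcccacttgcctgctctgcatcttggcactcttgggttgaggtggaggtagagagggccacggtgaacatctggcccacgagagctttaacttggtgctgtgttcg
Kcna2, chr2:197393280-197393579, plus strand: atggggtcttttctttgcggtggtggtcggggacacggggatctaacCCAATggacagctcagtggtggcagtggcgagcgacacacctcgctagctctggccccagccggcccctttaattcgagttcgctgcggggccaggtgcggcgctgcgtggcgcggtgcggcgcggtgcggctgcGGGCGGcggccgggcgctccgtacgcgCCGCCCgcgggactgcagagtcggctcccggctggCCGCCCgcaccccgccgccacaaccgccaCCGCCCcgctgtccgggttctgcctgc

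The motifs searched, on both strands, were GGGCGG (GC box), TGACGTCA (CRE), CACGTG (E-box), CCAAT and TATAAA. None of these motifs overlaps another in its letters, and a match is a description of letters only. GGGCGG was found in 33.1% of 33469 RefSeq promoter windows and in 33 of 58 potassium channel windows. CCAAT was found in 37.5% of all windows and in 18 of 58, TATAAA in 14.2% and 2, CACGTG in 6.42% and 3, and TGACGTCA in 1.83% and 0. The 58 windows belong to the 52 of 75 genes matched by Entrez gene identifier, and their median CpG count was 15, against 7 for all windows. The Kcna2 window held 40 CpGs and 4 GGGCGG matches, whereas the printed Kcnc2 window held 5 CpGs and no GGGCGG match. The first Kcnip1 window held 8 CpGs with no match, and the second held 15 CpGs, 1 GGGCGG match and 2 CCAAT matches.

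On the Kcnip1 probe set 1394097_at, HAD1 rats had a lowest, median and highest log2 level of 10.41, 10.98 and 11.34, against 10.37, 10.51 and 11.09 in LAD1 rats. The ranges overlapped, but 8 of 9 HAD1 arrays lay above the LAD1 median. The difference was 0.39 log2 (SE 0.11), with a limma adjusted p of 0.0836, so it did not pass. It passed without HAD1 28 (0.46, adjusted p = 0.00914), which lay on the other line's side and was the lowest of the HAD1 group, and without LAD1 31 (0.45, adjusted p = 0.0303), the highest of the LAD1 group.

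In AA rats the lowest, median and highest Kcnip1 levels were 9.81, 10.38 and 11.05, against 9.74, 10.05 and 10.38 in ANA rats. Of 10 AA arrays, 5 exceeded every ANA array, and the lower AA arrays lay within the ANA range. The difference was 0.33 (SE 0.15), with a limma adjusted p of 0.983.

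In sP rats the Kcnip1 levels were 9.95, 10.49 and 10.66, against 9.61, 9.91 and 10.74 in sNP rats. All 8 sP arrays lay above the sNP median, while the highest array of all was sNP 9, on the other line's side, and the lowest sP array was sP 2. The difference was 0.41 (SE 0.14), with a limma p of 0.00781 and an adjusted p of 0.9998.

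The differences in the remaining pairs were smaller on this probe set. HAD2 rats had 10.88, 11.38 and 11.53, against 11.16, 11.23 and 11.51 in LAD2 rats, a difference of 0.03 (95% interval -0.12 to 0.18). P rats had 9.13, 10.24 and 10.70, against 9.18, 10.08 and 10.65 in NP rats, a difference of 0.09 (-0.32 to 0.51). The ranges of both pairs overlapped almost fully, and the lowest P array was P 5, the one with high choroid plexus markers, without which the P minus NP difference was 0.20.

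Over the 5 pairs the mean Kcnip1 difference was 0.25 log2 (SE 0.07), or 1.19-fold, with a limma adjusted p of 0.0329. It was the 1 of 126 potassium channel probe sets that passed in this fit, in which 0.986% of all probe sets passed. The F test for variation among the 5 differences gave an adjusted p of 0.664. With the line pair as the replicate, 0 of 126 passed (0% of all probe sets), and Kcnip1 had an unadjusted p of 0.00436 and an adjusted p of 0.999. Under that test 7 of 126 had an unadjusted p under 0.05, against 3.35% of all probe sets. Of 7 microglia markers, Cx3cr1 also passed for the mean over the pairs (-0.16, limma adjusted p = 0.00146), and its part in the Kcnip1 value was not tested.

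Kcnip1 lost its call for the mean when any 1 of 3 of the 5 pairs was left out, which also left fewer arrays in the mean. Its mean difference was 0.22 without HAD1 and LAD1 (limma adjusted p = 0.232), 0.23 without AA and ANA (adjusted p = 0.123), and 0.21 without sP and sNP (adjusted p = 0.174). Single arrays also decided it: the adjusted p was 0.0508 without NP 5, 0.0514 without AA 1, 0.0507 without AA 5 and 0.0505 without sP 1, with a mean difference between 0.23 and 0.27 over the 96 arrays left out in turn. With LAD1 36 counted as HAD1 the mean was 0.24 (adjusted p = 0.0575).

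Without the 15 arrays on the other line's side, the mean Kcnip1 difference was 0.36 (limma adjusted p = 5.69e-05). In that setting the sP minus sNP difference was 0.68 (adjusted p = 0.00016) and the HAD1 minus LAD1 difference 0.44 (adjusted p = 0.0128), both past the threshold, with arrays picked on the line difference. The AA minus ANA difference was then 0.42 (adjusted p = 0.28). The share of all probe sets that passed for the mean was 2.9% in that setting, against 0.986% with every array.

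A second Kcnip1 probe set, 1370781_a_at, also had a positive difference in 5 of 5 pairs, between 0.01 in HAD2 minus LAD2 and 0.39 in sP minus sNP. In sP rats its lowest, median and highest levels were 6.49, 7.34 and 7.60, against 6.24, 6.89 and 7.66 in sNP rats, so the groups overlapped. Its mean difference was 0.18 (SE 0.07; limma adjusted p = 0.269), which did not pass. Without the arrays on the other line's side it passed for the mean (0.28, adjusted p = 0.00216), in HAD1 minus LAD1 (0.28, adjusted p = 0.0322) and in sP minus sNP (0.72, adjusted p = 0.00366). The third probe set, 1369603_at, lay at group means between 4.54 and 4.83 and had a mean difference of 0.04 (adjusted p = 0.748). Whether a sequence difference between lines lies under any of these probes was not tested.

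**Figure D2:**
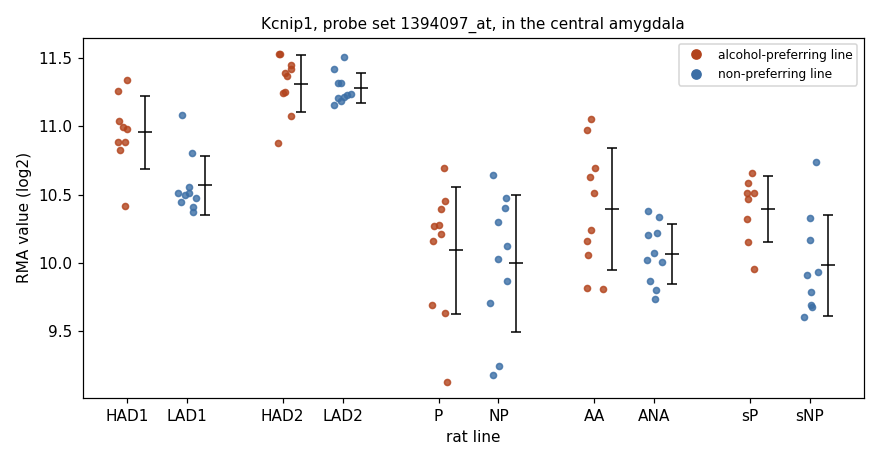
Log2 level of Kcnip1 (y axis) on every array, by rat line (x axis), with the preferring line of each pair left of its non-preferring line. Points are arrays and bars are the mean ± SD. HAD1, AA and sP rats lie on average 0.39, 0.33 and 0.41 above LAD1, ANA and sNP rats, and the groups overlap in every pair.

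The Kv4 pores that Kcnip1 binds, which carry the somatodendritic A-type current, did not pass in any pair with every array kept. Kcnd2 differed by -0.11 to 0.09 over the 5 pairs on its brightest probe set. Kcnd3 differed by -0.33 in sP minus sNP (limma adjusted p = 0.9998), and by -0.55 without the arrays on the other line's side (adjusted p = 0.00114). The Kv4-associated transmembrane subunits Dpp6 and Dpp10 also did not pass, at 0.10 and -0.19 in HAD1 minus LAD1 and at 0.05 and -0.01 in sP minus sNP.

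Kcnc2 was the member whose differences varied most clearly among the line pairs, on 2 of its 6 probe sets. It encodes a Kv3 channel that speeds repolarisation and allows fast firing, typically in parvalbumin-type inhibitory neurons. Of its 6 probe sets, 1370557_a_at (adjusted p = 0.000788) and 1370559_at (adjusted p = 0.0105) passed limma's F test for variation among the 5 differences. They were the 2 of 126 potassium channel probe sets to do so (1.59%), against 4.54% of all probe sets. Without the 15 arrays on the other line's side 12 of 126 passed (9.52%), against 10.5% of all probe sets. Besides both Kcnc2 probe sets these were probe sets of Kcnip3 (limma adjusted p = 0.00176), Kcnd3 (0.00247), Kcnj1 (0.0172), Kcnk15 (0.0202), Kcnab2 (0.0238), Kcna2 (0.0239), Kcnj8 (0.0307), Kcne4 (0.0422), Kcnk6 (0.0486) and Kcnk12 (0.0496). Both Kcnc2 probe sets were higher in HAD2 than in LAD2 rats, and both were on average lower in AA than in ANA rats.

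For 1370557_a_at, HAD2 rats had a lowest, median and highest level of 6.06, 6.36 and 6.83, against 5.74, 5.92 and 6.23 in LAD2 rats. All 10 HAD2 arrays lay above the LAD2 median and 8 lay above every LAD2 array, with a slight overlap. The difference was 0.43 (SE 0.08) and passed limma's test (adjusted p = 0.0017). It did not pass when all 10 lines shared 1 estimate of the spread (adjusted p = 0.0746).

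For the same probe set, AA rats had 6.03, 6.59 and 7.26, against 6.35, 7.07 and 8.14 in ANA rats. Of 10 AA arrays, 9 lay below the ANA median, and the exception was AA 19, one of the arrays on the other line's side. The difference was -0.64 (SE 0.19), a level 1.56-fold lower in AA rats, and did not pass (limma adjusted p = 0.688). It passed without the 5 AA and ANA arrays on the other line's side, at -0.85 (adjusted p = 0.0278), and with all 10 lines in 1 fit, at -0.64 (adjusted p = 0.00941). In HAD1 minus LAD1 the difference was 0.29 (95% interval 0.01 to 0.57; adjusted p = 0.429), in P minus NP -0.03 (-0.29 to 0.23) and in sP minus sNP 0.01 (-0.28 to 0.30).

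On 1370559_at, HAD2 rats had 8.20, 8.36 and 9.19, against 7.36, 7.88 and 8.31 in LAD2 rats. Every HAD2 array exceeded the LAD2 median, and 5 of 10 exceeded every LAD2 array. The difference of 0.59 (SE 0.12), or 1.5-fold, passed limma's test (adjusted p = 0.00502), also without the highest array, HAD2 6, at 0.50 (adjusted p = 0.0046).

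In AA rats the levels of 1370559_at were 9.02, 9.64 and 9.96, against 9.57, 9.77 and 10.45 in ANA rats. Of 10 AA arrays, 5 lay below every ANA array. The difference was -0.29 (SE 0.13; limma adjusted p = 0.983). In the other pairs it was 0.04 in HAD1 minus LAD1, -0.13 in P minus NP and 0.04 in sP minus sNP.

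The remaining 4 Kcnc2 probe sets did not follow this pattern in HAD2 rats. The brightest, 1370439_a_at, averaged 12.63 in HAD2 and 12.57 in LAD2 rats, a difference of 0.06 (95% interval -0.12 to 0.24; limma adjusted p = 0.746). Probe set 1371200_at had a difference of -0.18 (adjusted p = 0.0824), 1370558_a_at of -0.02 and 1388225_at of 0.09. Which transcripts each probe set detects is not given in the files used here. In AA minus ANA these 4 probe sets differed by -0.23 to -0.03, and none passed.

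Markers of the neighbouring striatum were read in the same pairs, and 0 of 6 passed in each. In AA minus ANA 0 of 6 differences were positive, with a median of -0.23, and the average per array lay between 9.47 and 11.51 in AA and between 10.41 and 11.50 in ANA rats. The highest AA array was AA 19, also the highest AA array on the Kcnc2 probe sets 1370557_a_at and 1370559_at. On the brightest Kcnc2 probe set the highest AA array was AA 7. The lowest AA array on the striatum markers was AA 1, the highest on the Kcnip1 probe set 1394097_at. In sP minus sNP 6 of 6 were positive, with a median of 0.30 and averages of 10.56 to 12.02 in sP and 10.61 to 12 in sNP rats. Oligodendrocyte markers had 0 of 5 positive in AA minus ANA, with a median of -0.19. The part of these markers in the Kcnc2 and Kcnip1 values was not tested.

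**Figure D3:**
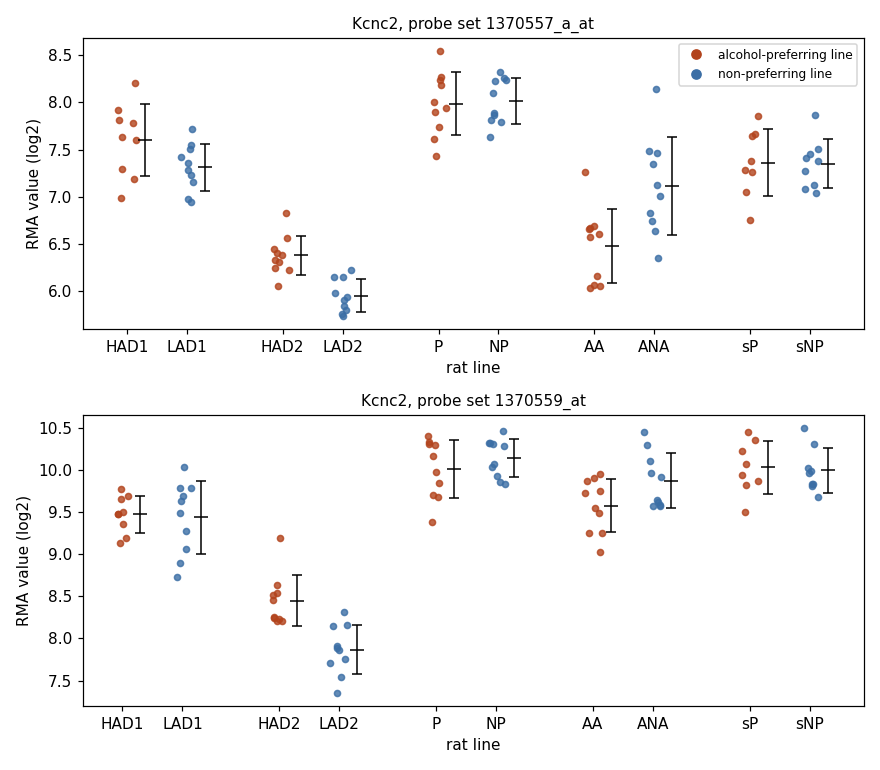
Log2 levels of 2 Kcnc2 probe sets (y axes) on every array, by rat line (x axis), with the preferring line left of its non-preferring line. Points are arrays and bars are the mean ± SD. HAD2 rats lie 0.43 (upper panel) and 0.59 (lower panel) above LAD2 rats, while AA rats differ from ANA rats by -0.64 and -0.29 on average.

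Kcna2 encodes a Kv1 channel of axons and juxtaparanodes that restrains firing. On its brightest probe set, 1379092_at, HAD2 rats had a lowest, median and highest level of 11.77, 12.31 and 12.63, against 11.51, 11.80 and 12.24 in LAD2 rats. Of 10 HAD2 arrays, 9 lay above the LAD2 median and 6 above every LAD2 array. The difference was 0.47 (SE 0.10) and passed limma's test (adjusted p = 0.00389) under each of 28 alternative settings, with adjusted p between 0.000418 and 0.022. In the other pairs the Kcna2 difference was negative, between -0.23 in P minus NP and -0.08 in HAD1 minus LAD1, and did not pass. Variation of Kcna2 among the pairs did not pass with every array (limma adjusted p = 0.0705), and passed with array weights (adjusted p = 0.00753) and without the arrays on the other line's side (adjusted p = 0.0239). The second probe set, 1370612_at, differed by -0.09 in HAD2 minus LAD2 (95% interval -0.22 to 0.04).

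Kcnq5 encodes a Kv7 channel that carries the M-current, a slow current that damps repetitive firing. HAD2 rats had levels of 10.20, 11.04 and 11.40 on 1379510_at, against 10.06, 10.52 and 10.91 in LAD2 rats. Of 10 HAD2 arrays, 7 exceeded every LAD2 array, and the low exception was HAD2 6. The difference of 0.51 (SE 0.12), or 1.42-fold, passed limma's test (adjusted p = 0.0164), though not when all 10 lines shared 1 estimate of the spread (adjusted p = 0.0673). In HAD1 rats Kcnq5 had levels of 9.02, 10.02 and 10.91, against 8.41, 9.57 and 10.08 in LAD1 rats. That difference was of like size, 0.47 (95% interval -0.01 to 0.96), but the spread within lines was wider and it did not pass (adjusted p = 0.469). In P, AA and sP rats the difference was -0.05, -0.04 and 0.02, and the other Kcnq5 probe sets differed by -0.15 and -0.04 in HAD2 minus LAD2.

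Kcnip3 encodes a calcium-binding subunit of Kv4 channels that is also known as a transcriptional repressor. HAD2 rats had levels of 10.03, 10.18 and 10.48 on 1376225_at, against 9.82, 10.03 and 10.22 in LAD2 rats, and the groups overlapped. The difference was 0.21 (SE 0.06), or 1.16-fold, with a limma adjusted p of 0.0438. The call held in 4 of 20 fits that left out 1 array, with adjusted p between 0.0194 and 0.0879, and was lost on centring each array on its median (adjusted p = 0.0746). The dimmer Kcnip3 probe set differed by 0.04 in HAD2 minus LAD2 (adjusted p = 0.637). In the other pairs Kcnip3 differed by 0.10 in HAD1, -0.20 in P, 0.09 in AA and 0.09 in sP rats, and none passed. Without the arrays on the other line's side the P minus NP difference of Kcnip3 was -0.42 (limma adjusted p = 0.0938). Its variation among the pairs then passed (adjusted p = 0.00176), as it did with array weights (adjusted p = 0.0149), against 0.366 with every array at equal weight.

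**Figure D4:**
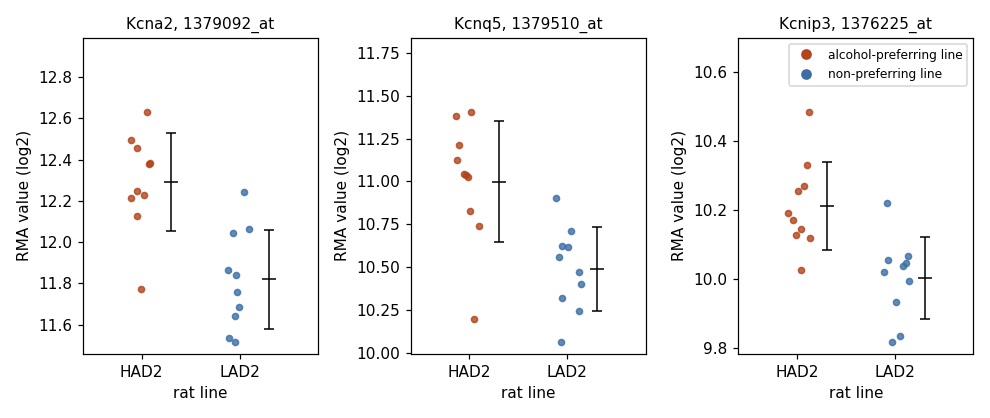
Log2 levels (y axes) of Kcna2, Kcnq5 and Kcnip3 on the 10 HAD2 (left) and 10 LAD2 (right) arrays of each panel. Points are arrays and bars are the mean ± SD, and the y axes do not start at 0. HAD2 rats lie on average 0.47, 0.51 and 0.21 above LAD2 rats, with overlap in each panel.

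No potassium channel probe set separated HAD2 from LAD2 rats without overlap, although 0.86% of all probe sets did. The same count was 0 of 126 in HAD1 against LAD1 (0.0193% of all probe sets), in P against NP and AA against ANA (0% of all) and in sP against sNP (0.00966% of all). Among marker lists, 8 central amygdala genes gave a median difference of -0.15 in HAD2 minus LAD2, with 1 of 8 positive and none past the test. The average of these markers per array lay between 9.69 and 10.87 in HAD2 and between 10.39 and 11.04 in LAD2 rats, and the lowest array was HAD2 6. Without HAD2 6, 4 of the 5 probe sets passed, among them Kcnq5 at 0.60 (limma adjusted p = 0.000446), and Kcnip3 did not (adjusted p = 0.0552). Of 7 microglia markers in HAD2 minus LAD2, P2ry12 was higher (0.64, adjusted p = 4.62e-06) and Cx3cr1 lower (-0.30, adjusted p = 0.0033), with 2 of 7 positive and a median of -0.24. The part of the markers in the other HAD2 values was not tested.

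Among the GIRK channels, which G proteins open and ethanol can open directly, no gene passed the test in any pair. Kcnj6 is the main brain GIRK subunit. On its brightest probe set, 1369035_a_at, levels were 8.995, 9.81 and 10.005 in HAD1 rats, against 8.47, 9.12 and 9.89 in LAD1 rats. The groups overlapped, and the difference of 0.52 (SE 0.18), or 1.44-fold, did not pass limma's test (adjusted p = 0.208), though it passed with array weights at 0.66 (adjusted p = 0.0394). This probe set differed by 0.04 in HAD2, 0.19 in P, 0.30 in AA and -0.04 in sP rats, with a mean of 0.20 (limma adjusted p = 0.574). The other Kcnj6 probe sets, 1369034_at, 1370598_a_at and 1370704_at, had mean differences of 0.01, 0.03 and -0.01, and none passed for the mean.

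Kcnj5, a GIRK subunit better known from the heart, gave values in the other direction in the same pair. HAD1 rats had 7.47, 7.87 and 8.17, against 7.99, 8.10 and 8.37 in LAD1 rats. The difference of -0.31 (SE 0.09) did not pass limma's test (adjusted p = 0.113), and it passed without the arrays on the other line's side (-0.35, adjusted p = 0.0421), without HAD1 28 alone (-0.35, adjusted p = 0.0345), without HAD1 30 (-0.36, adjusted p = 0.0461) and with array weights (-0.32, adjusted p = 0.0479). In P minus NP it was -0.24 (95% interval -0.52 to 0.05). Kcnj3, the usual partner of Kcnj6, differed by -0.07 to 0.06 and Kcnj9 by -0.10 to 0.12 over the 5 pairs, and neither passed.

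In HAD1 rats markers of microglia lay lower than in LAD1 rats. Of 7 markers, 0 had a positive difference, the median was -0.39, and Cx3cr1 (-0.40, limma adjusted p = 0.0348) and C1qc (-0.48, adjusted p = 0.0266) passed. Their average per array lay between 9.10 and 9.55 in HAD1 and between 9.40 and 9.97 in LAD1 rats. No marker was listed at 0, and the part of these markers in the HAD1 values was not tested.

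BK channels, calcium- and voltage-gated channels whose gating ethanol alters, showed no gene past the test. Kcnma1, the only pore-forming BK gene, differed by 0.00 in HAD1, 0.09 in HAD2, -0.01 in P, -0.03 in AA and 0.12 in sP rats. The widest of these intervals ran from -0.37 to 0.35 in P minus NP, and differences within it were compatible with the values there. The interval is not a detection limit, since larger differences could also fail the adjusted test. Kcnmb4, the brain beta subunit, differed by -0.21 (95% interval -0.42 to -0.003; limma adjusted p = 0.445) in HAD1 minus LAD1 and by -0.08 to 0.11 in the other pairs. Kcnmb1, known mostly from smooth muscle, differed by -0.09 to 0.03.

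SK channels, which carry the calcium-activated afterhyperpolarisation, and the related IK channel had no gene past the test either. Kcnn3 differed by -0.06 to 0.10 over the 5 pairs and Kcnn4, an IK channel of blood and immune cells, by -0.09 to 0.04. Their intervals lay within -0.33 to 0.30 for Kcnn3 and within -0.22 to 0.20 for Kcnn4.

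**Figure D5:**
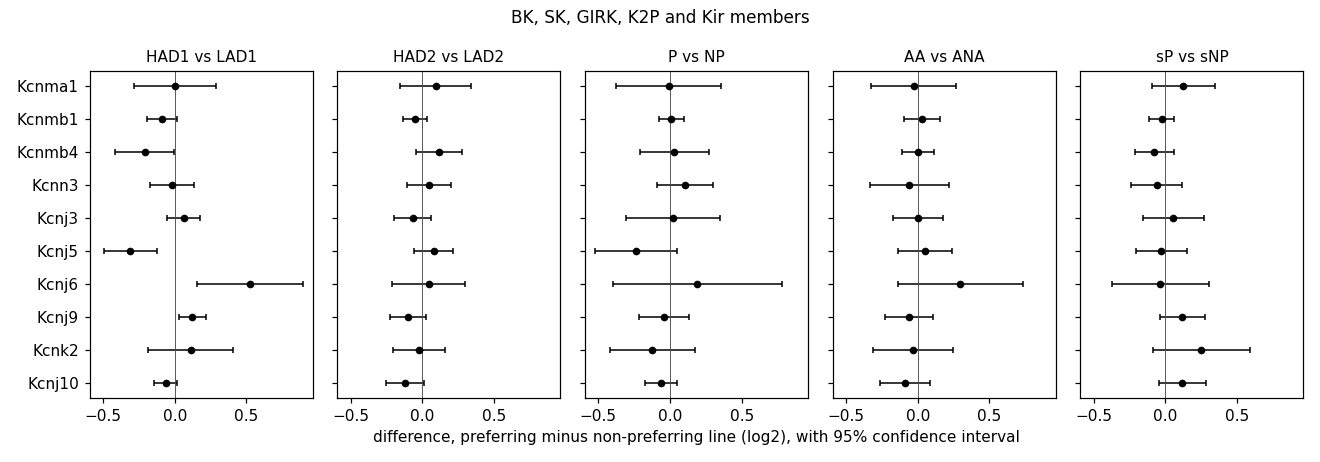
Differences in log2 level, preferring minus non-preferring line (x axis, points), with 95% intervals (bars) for 10 genes of the BK, SK, GIRK, K2P and Kir groups (y axis), 1 panel per line pair. None passed the test. In HAD1 minus LAD1 the intervals of Kcnj6 and Kcnj9 lie above 0, and those of Kcnj5 and Kcnmb4 lie below 0.

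KATP channels couple cell energy state to excitability and pair a Kir pore with a sulfonylurea receptor. Kcnj8, the pore found mainly in pericytes and vascular muscle, had levels of 6.51, 6.87 and 7.37 in sP rats, against 5.82, 6.47 and 7.28 in sNP rats. The difference of 0.36 (SE 0.15) did not pass limma's test (adjusted p = 0.9998), and without the 4 arrays on the other line's side it was 0.60 (adjusted p = 0.037). In the same pair 7 of 7 vascular markers had positive differences with a median of 0.06, and their average per array lay between 8.70 and 8.99 in sP and 8.51 and 9.0 in sNP rats. The part of these markers was not tested.

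In HAD2 rats the KATP partner Abcc9, the sulfonylurea receptor that pairs with Kcnj8, was the 1 of 29 measured channel partners to pass the test, where 4.09% of all probe sets passed. Its levels were 9.26, 9.40 and 9.81 in HAD2 rats, against 8.31, 8.65 and 9.22 in LAD2 rats, and its lowest HAD2 array exceeded the highest LAD2 array. The difference was 0.76 (SE 0.11; limma adjusted p = 3.69e-05). Kcnj8 itself differed by 0.18 (95% interval -0.01 to 0.36; adjusted p = 0.321) and Kcnj11, the neuronal KATP pore, by 0.19 (adjusted p = 0.407) on its brightest probe set. The pericyte marker Rgs5 was also higher in HAD2 rats, by 0.42 (adjusted p = 0.00964), while the endothelial marker Tek was lower, by -0.28 (adjusted p = 0.0235). Of 7 vascular markers, 4 were positive in this pair, with a median of 0.02, and Abcc9 is one of them.

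The other inward rectifiers set resting potential and buffer K+ in glia. Kcnj10, the astrocyte channel, differed by -0.12 to 0.12 over the 5 pairs and did not pass. Kcnj16, which assembles with Kcnj10, had a difference of 0.26 in HAD2 minus LAD2 on its brightest probe set (limma adjusted p = 0.186) and 0.21 on the other (adjusted p = 0.0863), which differed by 0.24 in HAD1 minus LAD1 (adjusted p = 0.144). Kcnj13, a channel of choroid plexus epithelium, differed by -0.10 to 0.08.

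The choroid plexus subunit Kcne2 was high on 1 P array. Its levels were 5.83, 6.03 and 9.23 in P rats, with 6.30 on the second-highest array, against 5.76, 6.09 and 6.44 in NP rats. The high array was P 5, which also gave the highest P level of the choroid plexus gene Ttr, at 15.05 against a P median of 6.30. Kcne2 differed by 0.32 on average (95% interval -0.32 to 0.95), although its P median lay below its NP median. In HAD2 minus LAD2 it differed by -0.12 (adjusted p = 0.223). There the choroid plexus markers averaged 6.67 to 6.99 in HAD2 and 6.78 to 7.87 in LAD2 rats, and their part was not tested. Kcne2, Kcnj11 and Kcnj16 were chosen after their values were seen.

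K2P leak channels hold the resting potential and did not pass in any pair when each was fitted alone with every array. Kcnk6, chosen after its values were seen, differed by -0.21 in HAD2 minus LAD2 on 1370776_a_at (limma adjusted p = 0.0982). It passed there with array weights, at -0.23 (adjusted p = 0.0456), and with all 10 lines in 1 fit, at -0.21 (adjusted p = 0.0421), while its brightest probe set differed by -0.06 (adjusted p = 0.703). Kcnk2, a mechano- and lipid-gated channel, differed by -0.12 to 0.25, with the widest interval from -0.08 to 0.59 in sP minus sNP. Kcnk12 had levels of 6.29, 6.49 and 7.20 in P rats, against 6.59, 6.77 and 6.97 in NP rats, a difference of -0.19 (limma p = 0.0797), which did not pass. Its highest P array was P 9, and without the arrays on the other line's side the difference was -0.32 (adjusted p = 0.0296). Kcnk15 differed by 0.16 in AA minus ANA (adjusted p = 0.897) and -0.11 in sP minus sNP, and Kcnk4, a mechanosensitive channel, by -0.003 in P minus NP and 0.06 to 0.18 in the other pairs.

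Among the remaining voltage-gated pores, Kcnd3 and Kcna6 gave their smallest p in sP rats. Kcnd3, a Kv4 pore, had levels of 9.47, 9.81 and 10.38 in sP rats, against 9.62, 10.32 and 10.49 in sNP rats. The difference of -0.33 (SE 0.13) did not pass limma's test (adjusted p = 0.9998), and without the arrays on the other line's side it was -0.55 (adjusted p = 0.00114). Its other probe sets differed by -0.01 and -0.07 there. Kcna6, a Kv1 pore, had 10.83, 11.09 and 11.45, against 11.04, 11.32 and 11.44 in sNP rats, a difference of -0.16 that was -0.26 without those arrays (adjusted p = 0.0268). In both genes the highest sP array was sP 2, one of the arrays on the other line's side.

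The EAG channel Kcnh1 had a positive difference in 5 of 5 pairs, between 0.02 in HAD2 minus LAD2 and 0.29 in HAD1 minus LAD1, and none passed. Its mean was 0.16 (SE 0.08; limma adjusted p = 0.661). The silent subunit Kcng2 modifies Kv2 channels without forming channels alone. On its brightest probe set, 1374814_at, the difference was negative in 5 of 5 pairs. It lay between -0.27 in P minus NP and -0.05 in sP minus sNP, with a mean of -0.11 (SE 0.06, limma adjusted p = 0.705). The other Kcng2 probe sets, 1390473_at and 1377477_at, were each positive in 3 of 5 pairs, with mean differences of -0.006 and 0.01. Kcng3 differed by -0.12 in HAD2 minus LAD2 (adjusted p = 0.168), Kcnh8 by -0.08 in P minus NP, and Kcnq3, a partner subunit of the M-current, by -0.08 to 0.17. Kcnb2, the measured Kv2 pore, differed by -0.06 to 0.05, Kcna3 by -0.06 to 0.00, Kcnc4 by -0.06 to 0.17 and the sodium-activated Kcnt1 by -0.07 to 0.16.

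The small transmembrane subunits Kcne4 and Kcne1 had differences of mixed sign over the pairs, and none passed. Such mixing was common, since only 5.02% of all genes kept the same sign in 5 of 5 pairs. The variation of Kcne4 among the pairs did not pass limma's F test with every array (adjusted p = 0.217). Kcne4, which inhibits several Kv channels, differed by -0.26 in HAD1 minus LAD1 (limma adjusted p = 0.186), -0.27 in AA minus ANA (adjusted p = 0.948) and -0.15 in sP minus sNP, against 0.06 in HAD2 minus LAD2 and 0.05 in P minus NP. Kcne1, a partner of Kv7 channels, differed by 0.18 in AA minus ANA (adjusted p = 0.942). Of the cytoplasmic subunit Kcnab2, probe set 1391203_at differed by -0.27 in HAD1 minus LAD1 (adjusted p = 0.267; -0.37 and 0.012 without the arrays on the other line's side) and by 0.40 in HAD2 minus LAD2 (adjusted p = 0.12), whereas the brightest probe set differed by 0.03 and -0.15. Kcnab2 was chosen after its values were seen.

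Probe sets of the same gene often disagreed in sign. Among 51 further probe sets, 25 had the sign of the brightest probe set in HAD1 minus LAD1, 27 in HAD2 minus LAD2, 40 in P minus NP, 33 in AA minus ANA and 30 in sP minus sNP. Over the whole array the shares were 57.0%, 56.7%, 60.0%, 60.6% and 56.9% in the same order. The 29 measured partner genes, among them scaffolds, G proteins and GABA-B receptors, had 13, 15, 11, 15 and 16 positive differences in that order of pairs, with medians between -0.03 and 0.01. Markers of the cortex and basolateral amygdala (4 measured) had medians between -0.07 and 0.14 with none past the test. Their array means ran from 6.94 to 10.20 in P rats (median 7.47), against 7.29 to 9.49 in NP rats (median 7.70), and the highest P array was P 9. P 9 was also the lowest P array on the central amygdala markers (10.54) and the highest for Kcnk12, Kcnip3 and the brightest Kcnj6 probe set. The part of these cells in the P values was not tested. Astrocyte markers had medians between -0.07 and 0.05 over 7 genes, and 1 of them, Gjb6, passed in HAD2 minus LAD2 (0.28, limma adjusted p = 0.0131).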

How the data were processed

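Gene expression was measured in the central nucleus of the amygdala on 96 Affymetrix arrays, 1 per animal. Per the labels' protocols, RNA was extracted with Trizol and RNeasy and labelled by a 2-cycle protocol from 25 ng. The deposited values are log2 levels made by the authors with RMA, per the submitters' processing notes; which arrays were processed as 1 set is not stated there. The number of arrays limits precision.

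Groups followed the titles. Of 31042 non-control probe sets (57 controls were left out), 20826 had 1 symbol, 436 several and 9780 none in the platform annotation; all 126 members matched RefSeq. Line pairs were fitted separately with limma 3.58.1 in R 4.3.3 (intensity trend, two-sided, Benjamini-Hochberg over all probe sets); the mean and the variation among pairs came from 1 fit of the 10 lines. In simulated HAD2 and LAD2 arrays the steps were tested on known changes. Named genes were those past a test, the 4 of smallest p per pair, the smallest mean p per subfamily, and 15 listed genes, of which 13 were measured. Lists of channel partners and of markers of central amygdala, striatum, cortex and basolateral amygdala, astrocytes, oligodendrocytes, microglia, vessels and choroid plexus were used. The members and lists were chosen with earlier results of these data known.

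An array was taken as lying on the other line's side where 100 probe sets outside the family, chosen without it, placed it there on both odd and even chromosomes. Numbers shared by P and NP or sP and sNP animals were not used as pairs, since the labels state no pairing. Of same-numbered arrays, 5 of 10 and 3 of 8 correlated above 0.1, the highest at 0.50 and 0.73. Whether such arrays were handled together was not tested. Alternatives were array weights, centring, quantile normalization, no trend, brighter probe sets, 1 probe set per gene, 1 fit of all lines, LAD1 36 recounted, arrays left out, and the replicate block.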

Additional observations from a re-analysis of the deposited data

Results flagged for a closer look

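Among 100 groups of values looked at for 1 array far from the others, 5 were found, and chance alone would give about 1 in 20 groups. Kcnc2 (1370557_a_at) was 7.26 on AA 19, with the next AA array at 6.69, and AA 19 lay on the other line's side. Kcnc2 (1370559_at) was 9.19 on HAD2 6, with the next at 8.63. Kcnip3 was 9.47 on HAD1 30, with the next at 10.13. Kcna2 was 12.63 on HAD1 24, with the next at 12.11. Kcnj13 was 7.09 on P 1, with the next at 6.71, and P 1 also lay on the other line's side.

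On Kcnc2 probe sets 1370557_a_at and 1370559_at the differences varied among the 5 line pairs by limma's F test (adjusted p = 0.000788 and 0.0105). The other Kcnc2 probe sets did not pass this F test. Their adjusted p was 0.918 on the brightest, 1370439_a_at, 0.960 on 1370558_a_at, 0.842 on 1371200_at and 0.701 on 1388225_at. For 1370557_a_at the difference was 0.43 in HAD2 minus LAD2 and -0.64 in AA minus ANA, and the AA difference did not pass on its own.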

How the results depend on the processing

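Of the values of single genes under the alternatives, 5960 kept their side of the threshold, 16 came to pass, 29 no longer passed and 0 called values changed sign. Most of these values had not passed, and such a value counted as kept wherever it again did not pass. The total is therefore no measure of how firm the calls were. Of the HAD2 minus LAD2 calls, Kcna2 passed in 28 of 28 alternatives and Kcnip3 in 9 of 28. For values that had not passed, direction was not counted, and some small differences changed sign. Kcnma1 in AA minus ANA, for example, ran from -0.09 to 0.07. Of the counts of potassium channel probe sets that passed, 333 stayed within 1.5 times and 27 moved, where a count of 0 that remained 0 was taken as having stayed. Without the 15 arrays on the other line's side the counts were 4 in HAD1, 1 in P, 1 in AA, 5 in sP, 2 for the mean and 12 for variation among pairs, and over all probe sets variation then passed for 10.5%. Array weights gave 4 in HAD1 (2.26% of all probe sets passed) and 9 for variation (12.8%). A single fit of all lines gave 3 in HAD2 (4.27%) and 1 in AA (0.654%). With 1 probe set per gene the counts were 3 in HAD2 and 0 for variation, since Kcnc2 is then read on another probe set; the brighter probe sets alone gave 1 for variation. With LAD1 36 counted as HAD1 the mean count was 0, and it was 0 over the other 4 pairs without HAD1 and LAD1, without AA and ANA, or without sP and sNP. Leaving out 1 array in turn gave 0 to 3 in HAD1 (3 without HAD1 28, 1 without HAD1 30, LAD1 31 or LAD1 37), 4 to 7 in HAD2 (7 without HAD2 10), 0 to 1 for the mean (0 without NP 5, AA 1, AA 5 or sP 1) and 2 to 4 for variation (4 without ANA 6 or AA 19). The causes were not tested. The fit with the replicate number as a block gave 0 in P and 0 in sP; 2 of 10 and 1 of 8 animals correlated best with their own number. Leaving out arrays for the mean and variation, and the means over 4 pairs, were chosen after seeing the data. Most members were dim: 42 of 126 lay above the median level of all probe sets, which limits what their differences can show.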
